A study of Mus musculus with 9 samples.

Results

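The 10 genes described here are members of the circadian clock: the activators Clock and Npas2, the period genes Per1, Per2 and Per3, the cryptochromes Cry1 and Cry2, the nuclear receptor genes Nr1d1 and Nr1d2, and the output factor Dbp. They were taken by symbol from a table of 22337 genes, and each symbol was held by 1 row. All 10 passed the filter on low counts in every comparison, so none was lost.

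The table came from RNA-seq of mouse retina at P28, with 3 libraries in each of 3 groups. WT were C57BL/6J mice that received no injection. Both other groups were rd10 mice, which carry a mutation in Pde6b, a subunit gene of the rod phosphodiesterase, and lose their rods. At P14 and again at P21, NS-treated rd10 mice received 1 μl of normal saline (NS) in each eye, and MSC-EVs-treated rd10 mice received 1 μl of MSC-EVs, extracellular vesicles of human umbilical cord mesenchymal stem cells. The labels place the injection in the vitreous in one field and call it intravenous in another. WT mice were bought from another supplier and not injected, so genotype, injection and supplier cannot be told apart in a comparison with WT. NS and MSC-EVs were given to littermates. The animals lived under a light/dark cycle. The hour at which retinas were taken, or whether it was the same for all groups, is not given in the sources used here. The paper describes overnight dark adaptation and light flashes for an electroretinogram, after which retinas were taken for blotting or staining. Whether the retinas for RNA-seq were handled in this way is not stated. Nor is it stated whether a library is 1 animal, so a p-value measures the spread between these libraries.

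In the molecular clock, CLOCK or its paralog NPAS2 pairs with BMAL1, the product of Arntl, and activates genes through E-box elements. Among these genes are Per and Cry, whose proteins return to the nucleus and inhibit the activators, and Nr1d1 and Nr1d2, whose products REV-ERB alpha and beta repress Arntl. DBP, itself an E-box target, activates genes through D-box elements. The retina keeps a clock of its own, which is set by light and shapes dopamine and melatonin signalling, and in a bulk sample the transcript level depends on both the hour and the mixture of cells.

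To show the elements through which these genes are linked, the 250 bases before each RefSeq start site (GRCm38.p6) were searched on both strands. RefSeq promoters were matched for 9 members (12 start sites), not for Per2. The E-box CACGTG was found in front of Per1 and Cry1, and stood in 6.02% of 32851 promoters of the same length. The D-box TTATGTAA or TTACGTAA was found only before Per3, with 2 copies that do not overlap, and stood in 0.931% of promoters. The REV-ERB and ROR element TAGGTCA or TGGGTCA, present in 5.38% of promoters, and the cAMP element TGACGTCA, present in 1.55%, had no match in these windows. The matches are shown with 10 bases on each side, because Per1 and Cry1 share the element yet moved oppositely in NS against WT. Capitals mark the element.
Per1, chr11:69098773-69098798, plus strand, E-box: cacccaagtcCACGTGcagggatgtg
Cry1, chr10:85185099-85185124, minus strand, E-box: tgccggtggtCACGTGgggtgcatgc
Per3, chr4:151044853-151044880, minus strand, D-box: gacccgcgcgTTATGTAAggtactcggg
Per3, chr4:151044806-151044833, minus strand, D-box: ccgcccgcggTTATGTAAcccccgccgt
The Per1 match began 166 bases before the more upstream of its 2 RefSeq start sites. That position is inside the GENCODE M21 gene Per1 (chr11:69095217-69109960), outside its exons. The Cry1 match began 60 bases before the start site, and the Per3 matches began 205 and 158 bases before theirs. These 3 lay upstream of the annotated genes Cry1 (chr10:85131700-85185064) and Per3 (chr4:151003652-151044665).

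The estimated counts summed to between 19491717 and 62532343 per library, MSC-EVs replicate 3 being the deepest. Levels below are CPM, counts relative to the library size as scaled by edgeR's TMM factors, and a gene was called when edgeR's quasi-likelihood test gave it an adjusted p under 0.05, with the adjustment made across the whole table. Behind the members' levels stood 464 to 16479 counts per library, except for Npas2 with 65 to 498. Summed over 8 rod markers, the level was 70060 to 75160 CPM in WT, 14100 to 20280 in NS and 14930 to 20720 in MSC-EVs. All 8 were called lower in NS against WT, all 8 microglia and macrophage markers higher (summed 34.5 to 36.4 CPM in WT, 244 to 308 in NS and 211 to 369 in MSC-EVs), and 7 of 8 Müller glia markers higher (4052 to 4346, 5728 to 7062 and 5203 to 5307 CPM). Higher in NS against WT were also 7 of 8 amacrine, 7 of 8 endothelial and pericyte, 5 of 8 ganglion cell and 5 of 8 bipolar markers, while 1 bipolar and 3 cone markers were lower and 1 cone marker was higher. In MSC-EVs against NS, 1 bipolar marker was called lower and no other marker of these lists was called. All 8 cone and all 8 Müller glia markers had a log2 fold change below 0, as had all 8 pigment epithelium markers, none of them called. The other lists named here had markers on both sides of 0. No marker of these lists was at 0 in any group. In these bulk samples, fewer cells of a type and less RNA per cell cannot be told apart, and the part of either in the values below was not tested. MSC-EVs replicates 1 and 2 held 4379 and 4421 counts of 4 Y-linked genes, the other 7 libraries 7 to 23. The labels give no sex. Such high counts stood only in MSC-EVs, so sex and treatment cannot be told apart in its comparisons with NS and WT. MSC-EVs replicate 3 was like the NS and WT libraries in these counts, and the part of sex was not tested. In the shift from WT to rd10 the scaling mattered: without the TMM factors, the median log2 fold change over all genes in NS against WT moved up by 0.18.

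In the WT retina, the output and REV-ERB genes stood highest per transcript length. In FPKM, fragments scaled to transcript length and library depth, the authors' values averaged 85.9 ± 3.61 (SD, n = 3) for Nr1d1, 74.9 ± 2.82 for Dbp and 51.4 ± 1.28 for Nr1d2. Cry2 (36.0 ± 1.38), Cry1 (24.9 ± 0.285) and Per1 (23.2 ± 0.531) followed. Clock (16.3 ± 0.617) and Per3 (15.6 ± 1.55) overlapped between libraries and could not be ordered. Per2 (5.90 ± 0.0702) and Npas2 (1.05 ± 0.473) were the lowest, and all other neighbours in this order were separated by their libraries. In NS, Per1 at 30.3 to 35.9 FPKM stood above Cry1 at 18.8 ± 1.44 (SD, n = 3), the reverse of their WT order. There, Nr1d2 and Cry2 overlapped, as did Cry1 and Clock. In MSC-EVs, Nr1d1 (98.5 ± 14.1 FPKM) overlapped Dbp (80.3 ± 4.60), Nr1d2 overlapped Cry2, Per1 overlapped Cry1, and Cry1 overlapped Clock.

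**Figure D1:**
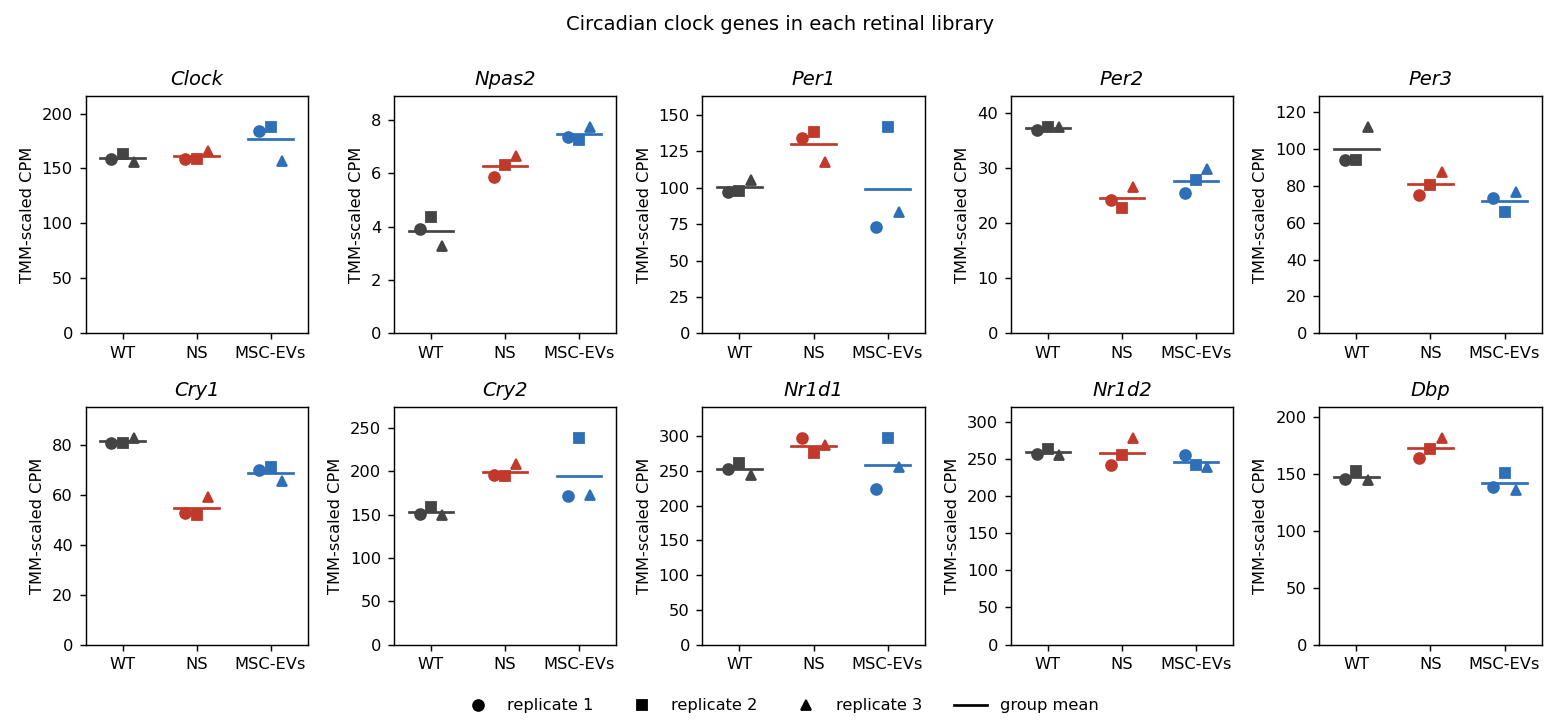
Level of each clock gene in the 9 libraries, as TMM-scaled CPM on a linear axis from 0, with 1 symbol per replicate and a bar at the group mean. Cry1 and Per2 are lower in all rd10 libraries than in WT, and MSC-EVs replicate 2 stands above its group for Per1 (142 CPM), Cry2 (238.9 CPM) and Nr1d1 (298 CPM).

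To see how the clock genes differ in the degenerating retina, NS was compared with WT. Of the 10 members, 5 rose (Npas2, Per1, Cry2, Nr1d1 and Dbp) and 3 fell (Per2, Per3 and Cry1). Over all 14644 genes tested, 31.2% rose and 30.1% fell, 61.3% in all, beside 80% of the members. No member changed by 1 or more on the log2 scale, which 12.7% of all genes did with an adjusted p under 0.05. The members' median log2 fold change was 0.09, beside 0.0053 over all genes. The libraries of NS and WT did not overlap for 8 members, against 66.9% of all genes.

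Within the activators, Npas2 rose and Clock did not pass the test. Clock, the partner of BMAL1 in most tissues, stood at 158, 163 and 156 CPM in WT, at 158, 158 and 166 in NS and at 184, 188 and 157 in MSC-EVs. The WT and NS libraries overlapped, with a log2 fold change of 0.012 (95% CI -0.10 to 0.12) and an adjusted p of 0.859. Npas2, which can stand in for Clock, was at 3.90, 4.34 and 3.25 CPM in WT, at 5.85, 6.32 and 6.64 in NS and at 7.36, 7.26 and 7.74 in MSC-EVs. All rd10 libraries lay above all WT libraries. The rise in NS against WT was 0.70 on the log2 scale (SE 0.16, adjusted p = 0.00232), from counts as low as 65.

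The period genes, whose proteins inhibit the activators, split. Per1, which responds to light as well as to the clock, was at 97.3, 97.9 and 105 CPM in WT, at 134, 138 and 118 in NS and at 73.3, 142 and 83.1 in MSC-EVs. Every NS library lay above every WT library, a rise of 0.37 on the log2 scale (SE 0.068, adjusted p = 0.00047) or 29.6%. Per2 was at 36.8, 37.4 and 37.5 CPM in WT, at 24.1, 22.7 and 26.5 in NS and at 25.4, 27.7 and 29.8 in MSC-EVs. It fell by 34.4% in NS, or by 0.61 on the log2 scale (SE 0.076, adjusted p = 2.57e-05). The coefficient of variation among the WT libraries was 0.942%. Per3, which is not required for the rhythm itself, was at 94.1, 94.1 and 112 CPM in WT, at 75.2, 80.5 and 87.7 in NS and at 73.7, 65.9 and 76.6 in MSC-EVs. Its fall of 0.31 on the log2 scale in NS (SE 0.077, adjusted p = 0.00444) separated all libraries. That call rested on the scaling: with library size alone the log2 fold change was -0.13 (adjusted p = 0.184).

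The cryptochromes, partners of PER in repression, split in the same way. Cry1, the stronger repressor of the pair, was at 80.6, 80.7 and 82.7 CPM in WT, at 52.7, 51.9 and 58.9 in NS and at 69.9, 70.8 and 65.3 in MSC-EVs. The 3 groups did not overlap, MSC-EVs lying between the other two. In NS, Cry1 fell by 33.1% against WT, or by 0.58 on the log2 scale (SE 0.062, adjusted p = 6.93e-06). Cry2 was at 150.4, 159 and 149.6 CPM in WT, at 196, 194 and 209 in NS and at 171, 239 and 173 in MSC-EVs. All rd10 libraries lay above WT, and the rise in NS was 30.3%, or 0.38 on the log2 scale (SE 0.054, adjusted p = 6.99e-05).

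The REV-ERB genes and Dbp differed by less. Nr1d1 was at 252, 262 and 244 CPM in WT, at 297, 276 and 287 in NS and at 224, 298 and 256 in MSC-EVs. NS and WT did not overlap, and Nr1d1 rose by 13.1% in NS (log2 fold change 0.18, SE 0.056, adjusted p = 0.0151). Nr1d2 was at 257, 263 and 255 CPM in WT, at 242, 255 and 278 in NS and at 256, 242 and 239 in MSC-EVs. Its groups overlapped, and the log2 fold change in NS was -0.0046 (95% CI -0.13 to 0.12, adjusted p = 0.951) with TMM and 0.18 (adjusted p = 0.0249) with library size alone. Dbp was at 146, 153 and 145 CPM in WT, at 164, 172 and 182 in NS and at 139, 151 and 136 in MSC-EVs. NS lay above both other groups in all libraries, a rise of 16.7% against WT (log2 fold change 0.22, SE 0.055, adjusted p = 0.00411).

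Nr1d1 and Dbp were the members whose deposited counts carried decimals, in all 9 libraries. Nr1d1 shares 263 exonic bases, 8.55% of its own, with Thra on the opposite strand, and Dbp shares 539, or 18%, with Sphk2. The use of strand in counting is not given in the sources used here. Thra, a thyroid hormone receptor gene, ran at 222 to 239 CPM in WT and 262 to 288 in NS (log2 fold change 0.25, adjusted p = 0.00216). Sphk2, a sphingosine kinase gene, ran at 14.0 to 16.0 CPM in WT and 15.1 to 15.2 in NS (log2 fold change 0.005, adjusted p = 0.966). The NS libraries lay above WT for Thra and inside the WT range for Sphk2, and the levels of Nr1d1 and Dbp are uncertain by what these neighbours could share. Cry2 shares 295 exonic bases, 4.67% of its own, with the transcript D930015M05Rik on the opposite strand, and Nr1d2 shares 5.13% of its stretches of 50 bases with AC170187.1. The counts of both were whole, and the source of the decimals was not tested.

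**Figure D2:**
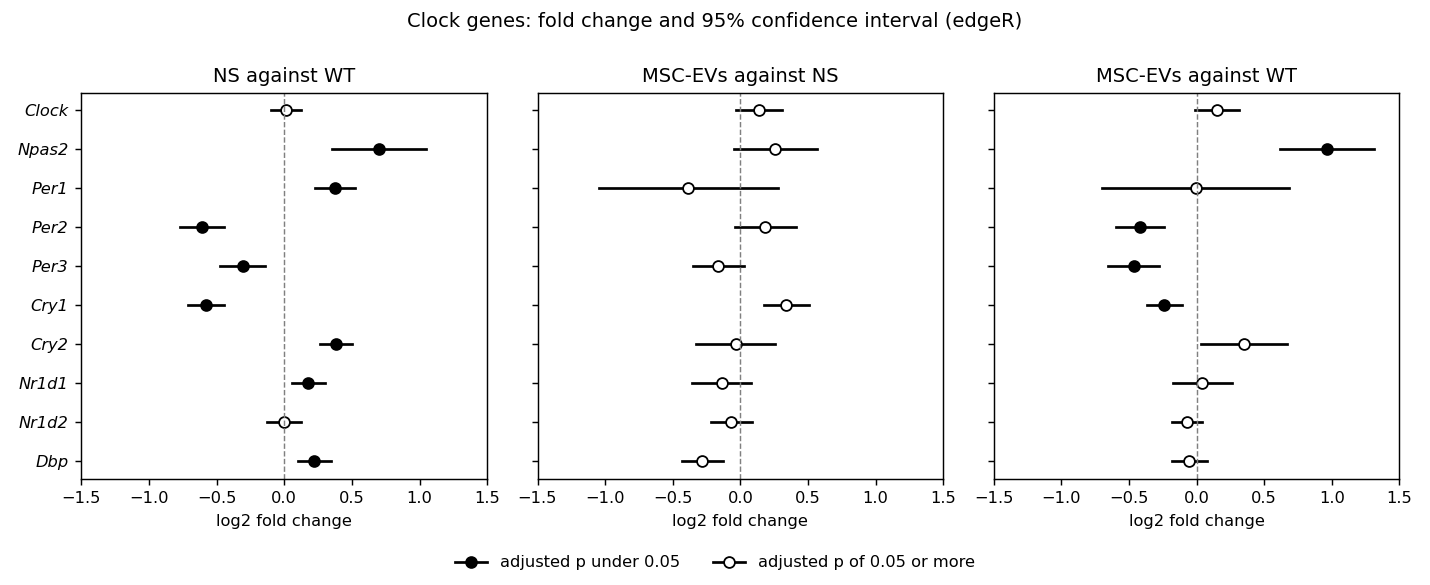
Log2 fold change (horizontal axis) of the 10 clock genes in the 3 comparisons, with 95% confidence intervals from edgeR. Filled points have an adjusted p under 0.05: 8 in NS against WT, 0 in MSC-EVs against NS and 4 in MSC-EVs against WT, where the intervals of Per1 and Cry2 are wide.

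The scale that carried NS against WT moved the balance of these calls. With library size alone, edgeR called 7 members higher (Clock and Nr1d2 added) and 2 lower (Per2 and Cry1), while over all genes 71.7% of the calls were higher, against 50.8% with TMM. On log2(FPKM + 1), limma called 6 higher and 2 lower, and 70.2% of all calls were higher. Relative to the shift of 0.18, Clock and Nr1d2 at 0.19 and 0.18 stood at the middle of all genes. Per1, Cry2, Npas2, Nr1d1 and Dbp were higher and Per2 and Cry1 lower under every scaling tried. With all 9 libraries in one fit, Per1 (adjusted p = 0.198) and Nr1d1 (adjusted p = 0.0872) were not called, nor was Nr1d1 without WT replicate 3 (adjusted p = 0.0574).

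Ratios of related genes within a library do not depend on that scale. They were chosen after the values had been seen, over 6 pairs and 3 comparisons, and are ratios of counts, so only their change between groups is read. The log2 ratio of Cry2 to Cry1 was 0.90, 0.98 and 0.86 in WT, 1.90, 1.91 and 1.82 in NS and 1.29, 1.75 and 1.40 in MSC-EVs. It differed by 0.96 ± 0.043 (SE) between NS and WT, with no overlap among the 3 groups. The log2 ratio of Per1 to Per2 was 1.40, 1.39 and 1.49 in WT, 2.48, 2.60 and 2.15 in NS and 1.53, 2.36 and 1.48 in MSC-EVs. NS exceeded WT by 0.98 ± 0.14 (SE), and in MSC-EVs only replicate 2 reached the range of NS. From WT to NS, the log2 ratio also changed by 0.68 ± 0.14 for Per1 to Per3, by 0.70 ± 0.11 for Npas2 to Clock, by 0.18 ± 0.076 for Nr1d1 to Nr1d2 and by -0.31 ± 0.096 for Per2 to Per3. All 6 ratios separated NS from WT (Npas2 to Clock did not when taken in FPKM). The share among other pairs of genes was not taken, and 66.9% of all single genes separated these groups. Each exact permutation test (two-sided, 3 against 3 libraries) gave p = 0.1, or 0.18 after adjustment over the 18 tests. That is the smallest p this design allows, and it follows from the lack of overlap, so the test adds nothing to it.

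**Figure D3:**
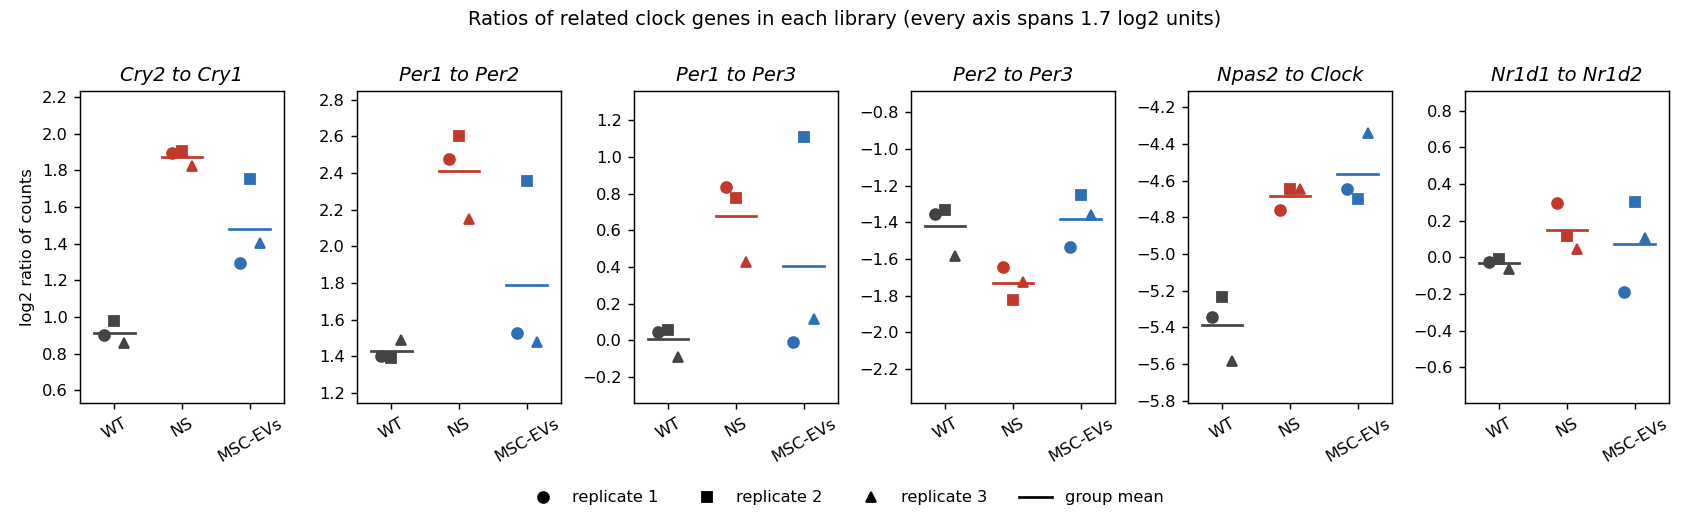
Log2 ratio of the counts of 6 pairs of related clock genes in each library, on axes of equal span, with a bar at the group mean. Cry2 to Cry1 separates all 3 groups, and for Per1 to Per2 MSC-EVs replicates 1 and 3 lie near WT and replicate 2 lies with NS. In FPKM (not shown), the Per1 to Per2 ratios of replicates 1 and 3 were 2.34 and 2.23. These lay between WT (1.92 to 2.01) and NS (2.66 to 3.14).

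To ask whether MSC-EVs altered the clock genes of the rd10 retina, MSC-EVs was compared with NS. edgeR called 0 of 10 members, with 2 at an unadjusted p under 0.05 (Cry1 and Dbp). DESeq2's Wald test called both, as did one fit of all 9 libraries. Over all genes, these settings called 947 and 1026, against 172 in the main fit. In the main fit few genes were called: of 14765 tested, 0.914% rose and 0.251% fell, 1.16% together. By at least 1 on the log2 scale, 0.061% were called. With one library left out, the calls over all genes ran from 0 (without NS replicate 3 or MSC-EVs replicate 1) to 676 (without MSC-EVs replicate 2). Of the calls, 78.5% were higher with TMM, 63% with upper-quartile factors and 52.7% with limma on FPKM. The members' median log2 fold change was -0.05, beside -0.0016 over all genes. The libraries of 3 members did not overlap (Cry1, Npas2 and Dbp), against 26.2% of all genes.

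Cry1 and Dbp had the narrowest margins. Cry1 was higher in every MSC-EVs library than in any NS library, by 0.34 on the log2 scale (95% CI 0.17 to 0.51, adjusted p = 0.0629 in edgeR and 0.00784 in DESeq2). Over all alternatives its adjusted p in this comparison ran from 0.00784 to 0.224. Dbp was lower in every MSC-EVs library, with a log2 fold change of -0.28 (95% CI -0.43 to -0.13, adjusted p = 0.0736 in edgeR and 0.0123 in DESeq2), and a range of 0.0123 to 0.284 over the alternatives. Npas2 was 0.26 higher on the log2 scale (95% CI -0.045 to 0.56, adjusted p = 0.322). All 3 moved away from the NS libraries without overlap, yet none passed the main test.

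Per1 was decided by 1 library. Its log2 fold change in MSC-EVs against NS was -0.38 with an interval of -1.05 to 0.28 (adjusted p = 0.481). Without MSC-EVs replicate 2, where Per1 stood at 142 CPM, it was -0.72 (adjusted p = 0.00429), and Dbp was then called too at -0.32 (adjusted p = 0.0385). In MSC-EVs replicates 1 and 3, Per1 stood at 73.3 and 83.1 CPM, below every NS library (118 to 138 CPM). The authors' FPKM for Per1 were 22.9, 37.9 and 24.6 in MSC-EVs, 31.2, 35.9 and 30.3 in NS and 23.5, 22.5 and 23.4 in WT. Relative to all genes, Per1 received more FPKM per CPM in MSC-EVs replicates 1 and 3 (1.17 and 1.12 times its mean) than in NS (0.873 to 0.971). Such a quotient depends on the transcript length assigned to the gene in each library, so counts and FPKM of Per1 are not the same measure. For Npas2 it ranged over 1.67-fold, for Clock over 1.10-fold and for the 7 remaining members over at most 1.02-fold.

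The other 6 members did not pass the test in MSC-EVs against NS. Per2 was 0.19 higher on the log2 scale (95% CI -0.037 to 0.41), Per3 was at -0.16 (95% CI -0.35 to 0.026) and Clock was 0.14 higher (95% CI -0.033 to 0.31). Cry2 (95% CI -0.33 to 0.26), Nr1d1 (-0.36 to 0.079) and Nr1d2 (-0.22 to 0.084) had intervals that spanned 0. The log2 ratio of Cry2 to Cry1 was lower in MSC-EVs by an estimate of -0.39 ± 0.14 (SE) and that of Per2 to Per3 higher by 0.35 ± 0.099, both without overlap between the groups (exact permutation p = 0.1, adjusted p = 0.18).

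**Figure D4:**
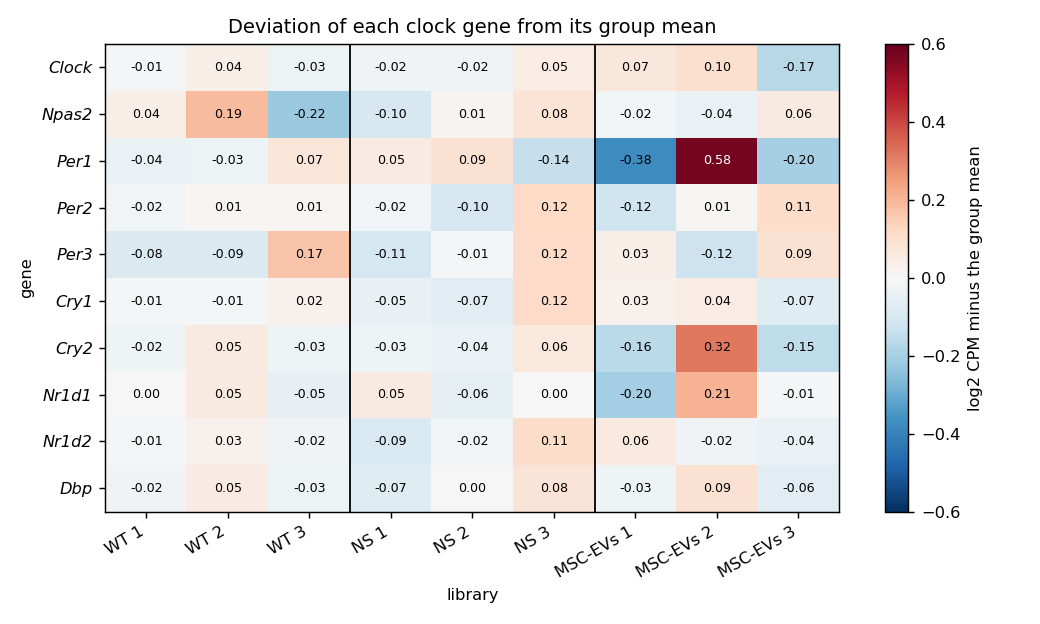
Deviation of each clock gene's log2 CPM from the mean of its own group, in each library, with the value in each cell. MSC-EVs replicate 2 is above its group by 0.58 for Per1, 0.32 for Cry2 and 0.21 for Nr1d1, and no other deviation above 0 is as large.

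Within groups, the deviations of the members were compared pair by pair. Over the 9 libraries, the correlation of within-group deviations had a median r of 0.222 over 45 pairs of members, 34 of them positive. The libraries share within-group centring and leave few free values. A median over pairs of other genes was not taken, so these values do not show whether the members moved together more than other genes. Between members, r was highest for Per1 and Cry2 (0.865), Cry2 and Nr1d1 (0.852) and Per1 and Nr1d1 (0.83), and lowest for Per3 and Nr1d1 (-0.542). The high values rested largely on MSC-EVs replicate 2, where Per1, Cry2 and Nr1d1 deviated by 0.576, 0.316 and 0.209. Elsewhere Per1 and Cry2 could run oppositely: they deviated by 0.0735 and -0.0305 in WT replicate 3 and by -0.137 and 0.0648 in NS replicate 3. The MSC-EVs libraries deviated most: the mean absolute deviation of the members was 0.0953 to 0.152 there, against 0.0252 to 0.087 in WT and NS. Over all genes it was 0.126 to 0.161 in MSC-EVs and 0.106 to 0.141 in WT and NS, above that of the members in every library. The median r between members was 0.459 without the MSC-EVs libraries, 0.126 without those of NS and 0.291 without those of WT, so its size rested on which group was included. With Dbp, the genes most alike among 11829 were Far2 (r = 0.997), Pla2g12a (0.977), Kbtbd11 (0.95), Lrp8 (0.939) and Wdr1 (0.938). The least alike were Ddx19a (-0.987), Fryl (-0.977), Rrm1 (-0.972), Tmem179b (-0.964) and Ccnt1 (-0.963). Among the members, Cry2 (0.8) and Clock (0.698) were closest to Dbp.

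MSC-EVs replicate 2 also stood apart beyond the members. Of 35 other clock-pathway and immediate-early genes with a mean of at least 5 CPM in MSC-EVs, 21, or 60%, had their highest value of the group in that library and 5 their lowest. Of 11868 genes at this level in MSC-EVs, 31.4% were highest there and 39.9% lowest. These counts were added after the members' values had been seen, and the genes that follow were chosen after their own values were seen. Ciart, a repressor of the clock, was at 15.3, 25.9 and 12.5 CPM in the MSC-EVs libraries, and Bhlhe40, which competes for E-boxes, at 113, 193 and 111. Among genes induced within minutes of a stimulus, Fos was at 32.4, 98.7 and 51.0 CPM and Junb at 46.3, 95.1 and 43.2. Others did not follow: Fosb was at 8.32, 10.3 and 11.9 CPM, and Noct, a gene of rhythmic expression, was lowest in that library at 902 CPM, against 1386 and 1067.

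To place both rd10 groups against the healthy retina, MSC-EVs was compared with WT; this shares its libraries with the comparisons above, and the values are set side by side only. Of 10 members, 1 rose (Npas2) and 3 fell (Per2, Per3 and Cry1), where 28.3% of 14623 genes rose and 27.2% fell, 55.5% in all. None changed by 1 or more on the log2 scale, against 12.2% of all genes, and 5 did not overlap, against 65.1%. With library size alone, 3 members were called higher and 2 lower, and 71.4% of all calls were higher, against 51% with TMM. Npas2 rose by 0.96 on the log2 scale (SE 0.16, adjusted p = 0.000586). Per2 fell by 0.42 (SE 0.080, adjusted p = 0.00148) and Per3 by 0.47 (SE 0.083, adjusted p = 0.00106), and both kept their call with library size alone. Cry1 fell by 0.24 (SE 0.058, adjusted p = 0.00584), but with library size alone it was at -0.083 (adjusted p = 0.251).

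Cry2 was higher in each MSC-EVs library than in WT, at a log2 fold change of 0.35 (SE 0.13) that missed the threshold (adjusted p = 0.0598). It passed in DESeq2's Wald test (adjusted p = 0.00456) and with library size alone (adjusted p = 0.0149). Its value depended on which MSC-EVs library was left out, at 0.17 (adjusted p = 0.0245) when that was replicate 2 and 0.44 (adjusted p = 0.0348) when it was replicate 1. Dbp, which had risen in NS, was at -0.054 (95% CI -0.19 to 0.077) in MSC-EVs against WT, and its libraries overlapped those of WT. Per1 was at -0.0063 with all libraries and fell by 0.35 without MSC-EVs replicate 2 (adjusted p = 0.00132). This fall was seen in counts only. In FPKM, Per1 stood at 22.9 and 24.6 in MSC-EVs replicates 1 and 3, beside 22.5 to 23.5 in WT. Clock at 0.15, Nr1d1 at 0.044 and Nr1d2 at -0.069 did not pass the test. With library size alone, Clock was at 0.31 and was called (adjusted p = 0.00538).

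The remaining genes of the pathway were followed with 3 lists of 34 genes, of which 30 were tested. In NS against WT, 8 rose and 12 fell, 66.7% of those tested beside 61.3% of all genes, with a median log2 fold change of -0.12. That balance turned with the scaling: library size alone called 16, of which 12 were higher, and limma on log2(FPKM + 1) called 15, of which 11 were higher. Arntl, which encodes BMAL1, was at 119.6, 112 and 120.5 CPM in WT and at 93.6, 88.1 and 80.0 in NS, with no overlap, and fell by 0.43 on the log2 scale (SE 0.067, adjusted p = 0.000146). Bhlhe40 was the only one to change by at least 1, from 72.1 to 77.7 CPM in WT to 134 to 166 in NS (log2 fold change 1.04, adjusted p = 3.93e-07). Among 12 other transcription factors of the loop, 3 rose and 5 fell. Kinases and ubiquitin ligases set the lifetime of PER and CRY, and their list of 10 genes also held Usp2 and Timeless, which are neither. In that list 3 rose, Timeless among them, and 3 fell, Usp2 among them. Of 12 genes for retinal rhythm, light input, dopamine and melatonin, 2 rose, 4 fell, 2 did not pass the test and 4 were too low to test. The low ones were Aanat, Asmt, Mtnr1a and Mtnr1b, all of melatonin synthesis and reception. Aanat had at most 6 counts in a library and Asmt 0 in all 9.

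In MSC-EVs against NS, 2 of the 30 were called, or 6.67% beside 1.16% of all genes. Adcy1, a calmodulin-stimulated adenylyl cyclase, was at 288.5, 265 and 239.7 CPM in NS and at 361, 383 and 441 in MSC-EVs, with no overlap (log2 fold change 0.59, SE 0.095, adjusted p = 0.0298). Rorb, a ROR receptor gene of the retina, was at 221, 248 and 237 CPM in NS and at 155, 189 and 146 in MSC-EVs, also with no overlap (log2 fold change -0.52, SE 0.095, adjusted p = 0.0424). This count did not hold when libraries were left out: it ran from 0 to 6, being 0 without NS replicate 2 or 3 or MSC-EVs replicate 1 and 6 without MSC-EVs replicate 2. Arntl did not pass the test, at a log2 fold change of 0.02. In MSC-EVs against WT, 7 rose and 8 fell, 50% of those tested beside 55.5% of all genes, and with library size alone 10 of 14 calls were higher. Rorb fell by 1.29 on the log2 scale (adjusted p = 3.49e-05).

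**Figure D5:**
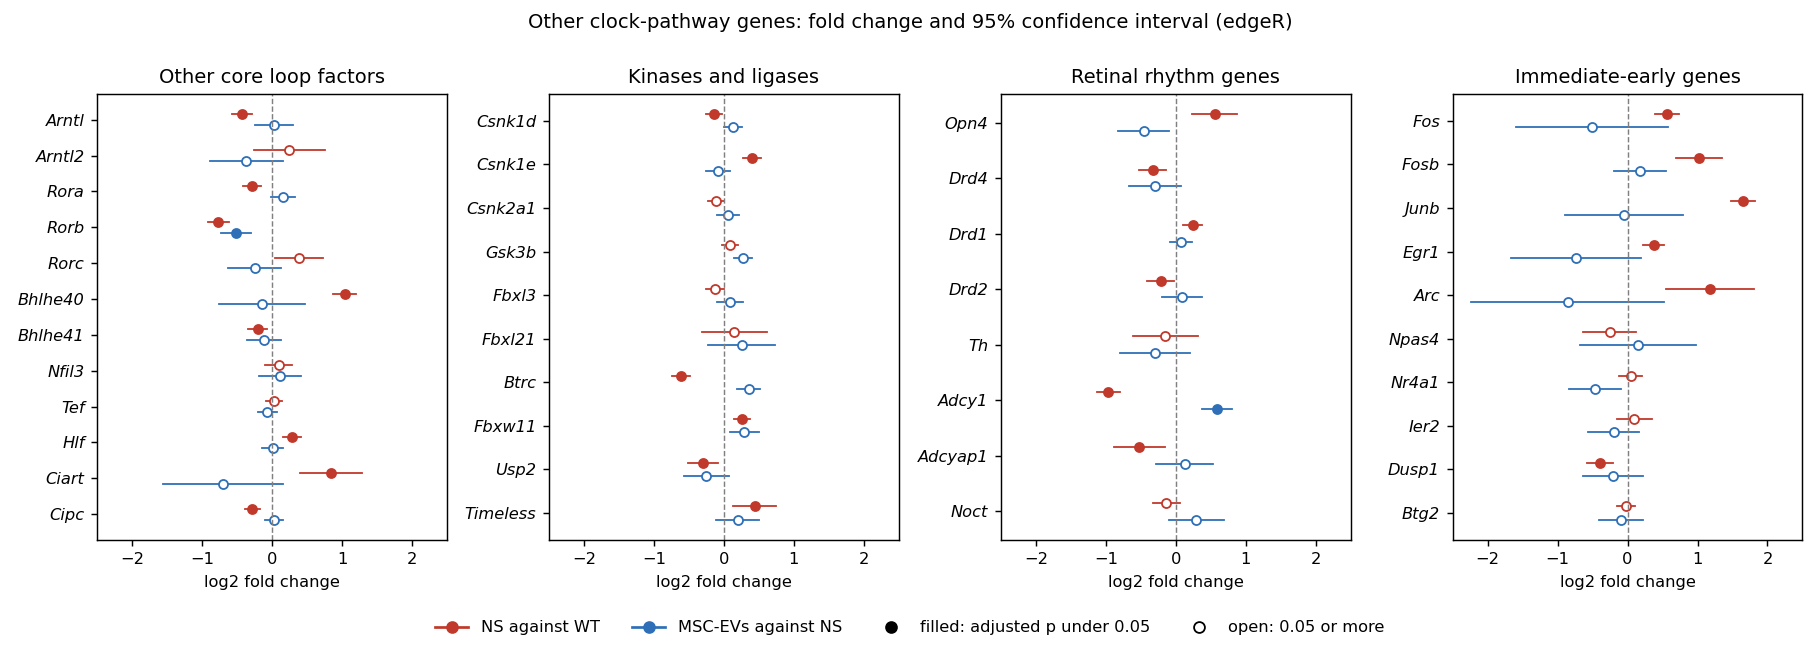
Log2 fold change with 95% confidence interval of the other clock-pathway genes and of 10 immediate-early genes, in NS against WT (red) and MSC-EVs against NS (blue), which share the NS libraries. Filled points have an adjusted p under 0.05; in blue only Adcy1 and Rorb are filled.

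Since Per1 is also a light- and activity-responsive gene, 10 immediate-early genes were set beside it. In NS against WT, 5 rose and 1 fell, or 60% of the list beside 61.3% of all genes, with log2 fold changes of 1.65 for Junb (adjusted p = 8.47e-09), 1.18 for Arc (adjusted p = 0.00428) and 1.02 for Fosb (adjusted p = 0.000103). Fos (0.56) and Egr1 (0.38) rose by less, and Dusp1 fell by 0.39. Junb was at 19.2 to 21.9 CPM in WT and 59.8 to 66.8 in NS. In MSC-EVs against NS, edgeR called 0 of the 10, beside 1.16% of all genes, with 1 at an unadjusted p under 0.05, and their adjusted p began at 0.167. In MSC-EVs against WT, Fosb (1.20) and Junb (1.61) rose and Dusp1 fell by 0.60, so that 30% of the list was called beside 55.5% of all genes.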

How the data were processed

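RNA-seq of 9 retinal libraries was used, 3 per group, with groups taken from the labels. The authors deposited one table with estimated (expected) counts and FPKM values for 22337 genes. The expected counts, per the file headers, were not scaled to library size, and were rounded here, since 9.16% to 11.7% of a library's genes had decimals. The deposited FPKM values had been scaled by the authors for transcript length and depth. The submitters' processing notes name fastp, Bowtie2, HISAT2, StringTie 1.3.1 and RSEM; their roles, the genome build and the use of strand are not given in the sources used here.

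Groups were compared 2 at a time. For each comparison, edgeR 4.0.16 (R 4.3.3) was fitted to the 6 libraries concerned, with filterByExpr, TMM factors, the robust quasi-likelihood test and Benjamini-Hochberg adjustment across every gene that passed the filter. The procedure was tested on simulated data, with far fewer genes changed than were called in NS against WT, in equal number up and down. That test does not cover a shift in scaling like the one between WT and rd10. The SE of a log2 fold change was its size divided by the square root of F. CPM were scaled with TMM factors over 9 libraries. Alternatives were other scalings and filters, DESeq2 1.42.0, one fit of 9 libraries, a replicate block, limma 3.58.1 on log2(FPKM + 1), and each library left out in turn. Library size alone and the ratios of related genes were added after the data were seen. So were the values of Thra and Sphk2, FPKM per CPM, and the counts of genes highest or lowest in each MSC-EVs library. Within-group deviations were taken on log2 CPM with a prior count of 1.

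All 10 members are named. Genes of the other lists are named where called and changed by 1 or more on the log2 scale, with Arntl; any other gene of these lists, and Thra and Sphk2, was named after its values were seen. The 5 genes most and least like Dbp (mean of at least 5 CPM) were taken by r. The members and lists were chosen with earlier results of these data known. Positions are those of GENCODE M21 (GRCm38), and promoters those of RefSeq (GRCm38.p6). The precision of a level is limited by 3 libraries per group; a single count stood for 0.016 to 0.0513 CPM.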

Additional observations from a re-analysis of the deposited data

How the results depend on the processing

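Over 170 combinations of member and alternative per comparison, the log2 fold change kept its direction and its side of the threshold in 152 for NS against WT, 162 for MSC-EVs against NS and 132 for MSC-EVs against WT, and changed direction in 10, 2 and 19; the causes were not tested. The 7 calls lost in NS against WT were those of Per3 (4 settings), Nr1d1 (2) and Per1 (1). A rule that also asks for a log2 fold change of at least 1 left 0 members in each comparison. In MSC-EVs against NS, members called numbered 2 with the DESeq2 Wald test and with all 9 libraries in one fit. Over all genes, these settings called 947 and 1026, against 172 in the main fit. With one library left out, 0 to 2 members were called. In the same comparison, the other pathway genes called numbered 4 with the Wald test and with all 9 libraries. They also numbered 4 with limma on log2(FPKM + 1) or log2(FPKM + 0.1), which called 315 and 313 genes in all. With limma and no filter they numbered 0, and no gene was called at all. With one library left out they numbered 0 to 6. The median r between members was 0.459 without the MSC-EVs libraries and 0.126 without those of NS.

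In NS against WT, Nr1d2 turned positive with upper-quartile factors (0.029), a minimum of 10 counts (0.0037), library size alone (0.18) and limma on FPKM (0.17 with a pseudocount of 1, with or without the filter, and 0.18 with 0.1). With one library left out, Nr1d2 ran from -0.057 to 0.034 and Clock from -0.0084 to 0.034. In MSC-EVs against NS, Cry2 ran from -0.21 to 0.054 and the ratio of Nr1d1 to Nr1d2 from -0.20 to 0.050 with one library left out.

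In MSC-EVs against WT, Per1 turned positive with DESeq2 size factors (0.0014), the Wald test (0.0054), a minimum of 10 counts (0.0093), library size alone (0.15) and limma on FPKM (0.25 with a pseudocount of 1, with or without the filter, and 0.26 with 0.1), and ran from -0.35 to 0.18 with one library left out. Nr1d1 ran from -0.073 to 0.14. Nr1d2 was positive with library size alone (0.086) and limma on FPKM (0.089, 0.091 with 0.1, 0.089 unfiltered), as was Dbp (0.10 and, on FPKM, 0.0999, 0.101 and 0.0999).

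Replicate numbers were not taken as pairs: same-numbered libraries of NS and MSC-EVs correlated in their deviations at 0.0951, 0.169 and 0.264, each being closest to its own number, while those of NS and WT lay between -0.0565 and 0.0264. A replicate block raised the calls over all genes in MSC-EVs against NS from 172 to 403, left the members at 0, moved the other pathway genes from 2 to 3, gave 8 members in NS against WT and 5 in MSC-EVs against WT, where Cry2 was added (0.33, adjusted p = 0.0128 in edgeR).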
